A study of Mus musculus with 2 samples.

Results

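The genes described here make up the vascular endothelial growth factor (VEGF) system: the ligand genes *Vegfa*, *Vegfb*, *Vegfc*, *Vegfd* and *Pgf*, the receptor genes *Kdr*, *Flt1* and *Flt4*, and the neuropilin genes *Nrp1* and *Nrp2*. They were taken by name from both deposited count matrices of a single-cell RNA series on mouse intestinal stroma. All 10 were present among 31053 genes. They were read in barcodes that hold at least 1000 unique molecular identifiers (UMIs, each standing for a captured mRNA molecule), with at most 20% of them from mitochondrial genes.

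The series asked what loss of *Lef1*, which encodes a transcription factor of the Wnt pathway, does in mice that carry the ApcMin allele and form intestinal adenomas. One library, ApcMin, came from ApcMin/+;Lef1 +/+ mice, and the other, VApcMinL, from ApcMin/+;Lef1 fl/fl;Villin-Cre mice. All were C57BL/6 mice, aged 11 weeks by the labels and the study's methods, although its results give 10 weeks for these libraries. Lamina propria was digested and sorted for cells negative for DAPI, Ter119, EpCAM and CD45. Villin-Cre acts in the intestinal epithelium, so the stromal, endothelial and immune cells described below were not its target. Each genotype has 1 library, and the number of mice in a library is not given. There are no replicates, so a difference between the libraries cannot be told apart from a difference between mice or between preparations.

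VEGF proteins are secreted dimers that bind receptor tyrosine kinases on endothelial cells. VEGF-A, VEGF-B and PlGF signal to blood vessels, while VEGF-C and VEGF-D are the chief growth factors of lymphatic vessels, among them the lacteals that take up fat in the small intestine. Neuropilins are coreceptors that lack a kinase domain and also bind class 3 semaphorins.

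The genotype could not be read from these libraries. *Lef1* was at 6.13 CPM (UMIs of the gene, scaled to 1e6 UMIs of the class) in epithelial-like cells of ApcMin (16 UMIs in 3 of 68 cells) and at 2.31 CPM in those of VApcMinL (30 UMIs in 11 of 330 cells). The library was made from the 3′ ends of mRNA, so tags that lie outside the deleted stretch check nothing. *Lef1* was present where the Cre does not act, at 46.3 and 34.4 CPM in T cell or ILC-like cells. The libraries shared 23 cell barcodes.

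After likely doublets had been left out, ApcMin held 7132 cells with a median of 9482 UMIs and VApcMinL held 8006 cells with a median of 6566 UMIs. Cells were grouped into 17 clusters without using the 10 genes, and each cluster was named after its markers. Cell types that the sort was meant to remove were found in both libraries. Immune-like cells made up 25.6% and 25.4% of cells, which the CD45 gate would have removed. Erythroid-like cells made up 24.1% and 6.83%, and Ter119 would have removed them. Epithelial-like cells, the target of the EpCAM gate, made up 0.953% and 4.12%. The sorted antigens were measured as mRNA: *Ptprc*, which encodes CD45, was at 819 and 682 CPM in myeloid-like cells and at 30.6 and 39.8 CPM in plasma cell-like cells (608 of the 1828 and 1019 of the 2033 immune-like cells), and *Epcam* was at 2305 and 2143 CPM in epithelial-like cells.

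The classes that bear on VEGF biology differed in size. There were 3254 and 3867 fibroblast-like cells, 49 and 107 smooth muscle-like cells, 325 and 528 myeloid-like cells, 135 and 676 blood endothelial-like cells, and 34 and 191 lymphatic endothelial-like cells, ApcMin first. The fibroblast-like class is a mixture whose make-up differed between the libraries. Clusters 0 (led by *Pi16*, *Has1* and *Igfbp6*) and 2 (*Lpl*, *Cxcl14* and *Penk*) made up 36.7% and 26.5% of it in ApcMin, and 24.0% and 19.9% in VApcMinL. Cluster 1 (*Adamdec1*, *Col6a5* and *Ereg*) made up 16.5% of it in ApcMin and 36.0% in VApcMinL. Clusters 4 (*Grem1*, *Stc2* and *Col14a1*) and 13 (*Thbs2*, *Scg2* and *Fibin*) made up 16.7% and 3.66% in ApcMin, and 17.7% and 2.48% in VApcMinL. The smooth muscle-like cluster also held pericyte markers, led by *Rgs5*, with 9777 and 9137 CPM over the list's 8 genes.

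**Figure D1:**
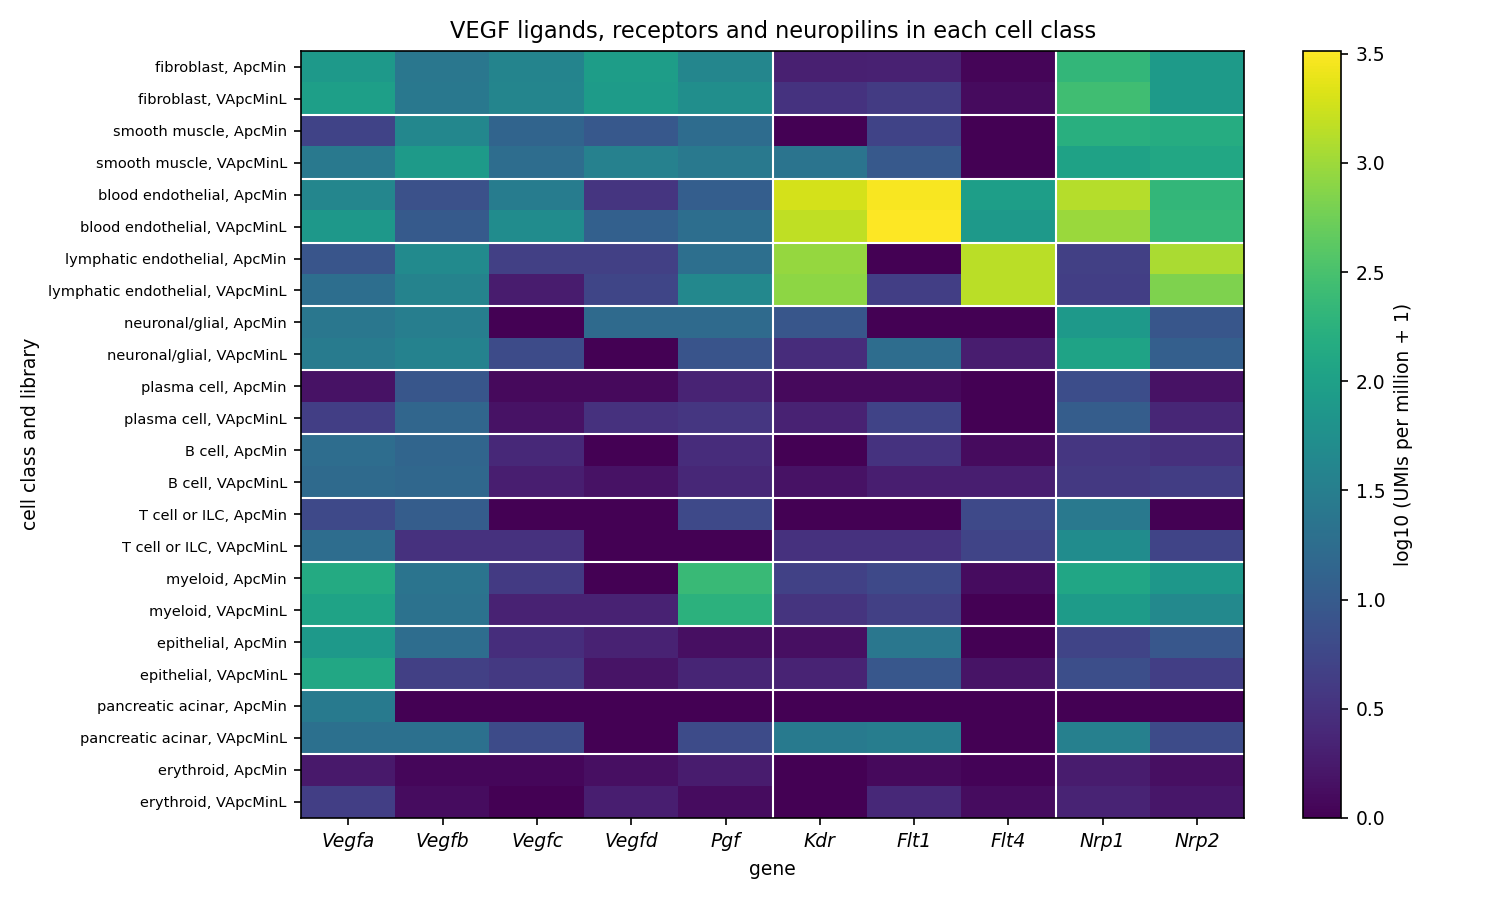
Level of each of the 10 genes in each cell class of each library, as log10 of CPM plus 1. The ligands are spread over stromal, myeloid-like and epithelial-like cells, and the 3 receptors stand out in the endothelial classes.

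With cells classed by cluster, fibroblast-like cells, the largest class, held most of the mRNA of each ligand. This depended on the classing: with each cell classed singly, by its own markers, the class held 20467673 and 15732681 UMIs in all instead of 43704959 and 39566999, and less of every ligand. The other classes with a high level differed by ligand: myeloid-like and epithelial-like cells for *Vegfa*, smooth muscle-like, lymphatic endothelial-like and glial-like cells for *Vegfb*, blood endothelial-like cells for *Vegfc*, and myeloid-like cells for *Pgf*. By cluster, *Vegfd* was close to restricted to fibroblast-like cells. Values below are given for ApcMin first and VApcMinL second, and the 95% intervals hold counting error only.

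*Vegfa* encodes the ligand that drives the growth of blood vessels. Fibroblast-like cells had 77.4 CPM of it (95% interval 74.8 to 80.04) in ApcMin and 94.8 CPM (91.8 to 97.9) in VApcMinL. Myeloid-like cells had 139 CPM (127 to 153) in ApcMin and 107 CPM (94.2 to 120.2) in VApcMinL. Epithelial-like cells had 78.1 CPM (67.7 to 89.6) in ApcMin and 127 CPM (121 to 133) in VApcMinL. The order of the classes therefore differed between the libraries, with myeloid-like cells first in ApcMin and epithelial-like cells first in VApcMinL. In ApcMin the epithelial-like and fibroblast-like levels did not differ beyond counting error, and in VApcMinL the myeloid-like and fibroblast-like levels did not. Blood endothelial-like cells came next, at 40.5 and 72.7 CPM. Smooth muscle-like cells gave 1 and 12 *Vegfa* UMIs (4.12 and 25.4 CPM), so they added little of this ligand.

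By the number of molecules, fibroblast-like cells held 80.9% of the *Vegfa* UMIs of all cells in ApcMin and 62.1% in VApcMinL. The same class held 59.7% and 55.4% of all UMIs, so by cluster its share of *Vegfa* was above its share of mRNA in both libraries. Epithelial-like cells held 4.88% and 27.2% of *Vegfa*, and myeloid-like cells 11.4% and 4.40%. When cells were classed singly the fibroblast-like share was 36.5% and 23.1%. The class then held 20467673 of 73217419 UMIs in ApcMin and 15732681 of 71440135 in VApcMinL, so the excess of *Vegfa* was smaller. These shares describe the sorted suspension and not the tissue, because the gates were meant to remove immune and epithelial cells.

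**Figure D2:**
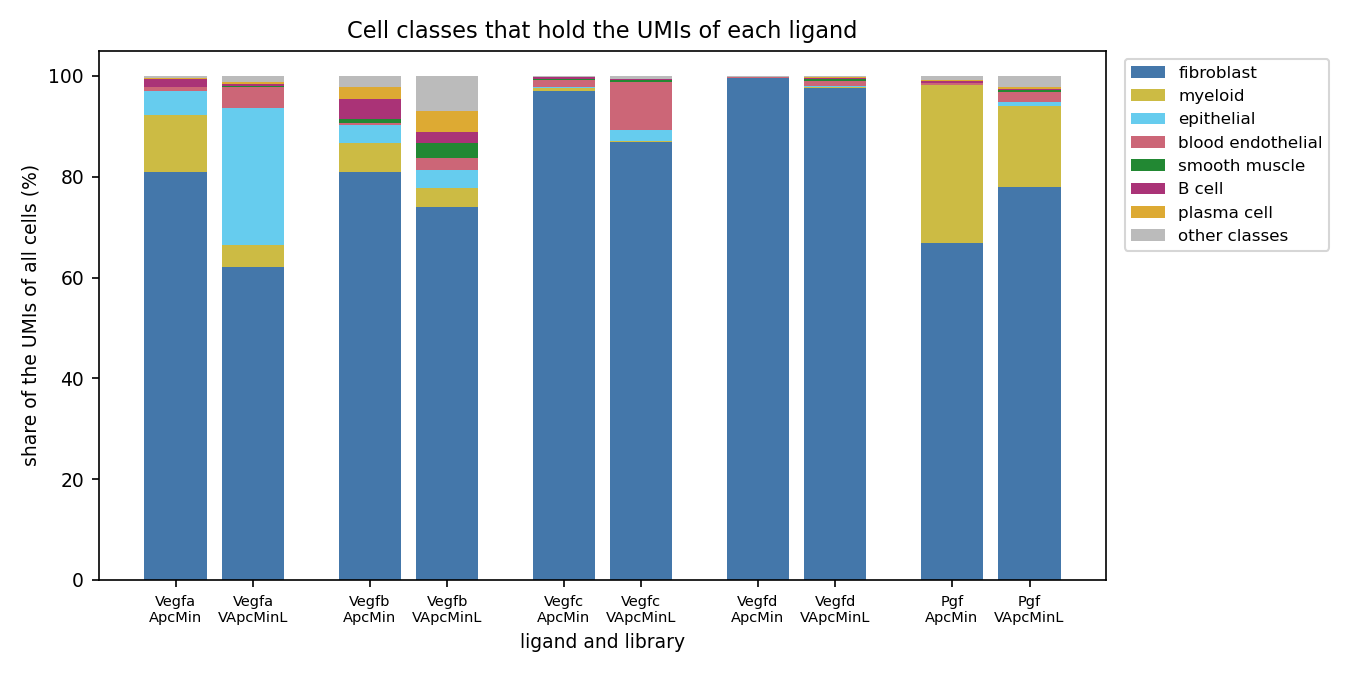
Share of the UMIs of each ligand gene, in percent, that lay in each cell class, for both libraries. Fibroblast-like cells hold the largest share of all 5 ligands, and the epithelial-like share of *Vegfa* is larger in VApcMinL.

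Within the fibroblast-like class *Vegfa* was highest in cluster 0, the *Pi16* cluster, at 113 and 140.4 CPM, where 62.4% and 60.4% of cells held a UMI. It was at 69.1 and 81.4 CPM in cluster 1, at 61.1 and 78.7 CPM in cluster 4, and at 39.4 and 61.4 CPM in cluster 2. Cluster 13 was lowest, at 27.6 and 10.5 CPM. So the order of the 5 clusters was alike in both libraries, although the spread between first and last was wider in VApcMinL. Finer clustering set apart a small group led by *Bmp5* and *Bmp7*, with 30 and 71 cells, in which *Vegfa* was at 228 and 106 CPM. Another small group, led by *Wif1* and *Itgbl1* (26 and 117 cells), had 50.3 and 238 CPM.

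In myeloid-like cells, *Vegfa* mRNA was concentrated in few cells. The 10 cells with the most *Vegfa* UMIs held 70.9% of the class's *Vegfa* in ApcMin and 71.4% in VApcMinL, and a UMI was found in 15.4% and 7.01% of cells. Those 10 cells were deep, with medians of 28710 and 29246 UMIs, against 7577 and 2034 in the others. They also differed in other genes of macrophages and neutrophils. *Hilpda*, a lipid droplet gene that responds to hypoxia, was at 871 and 1002 CPM in them against 116 and 112 CPM in the others. *Mrc1*, a marker of resident macrophages, was lower in them, at 247 and 415 CPM against 744 and 669 CPM. Cells rich in *Vegfa* were thus *Hilpda*-high and *Mrc1*-low in both libraries.

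*Vegfb* encodes a ligand of the *Flt1* product that is linked with metabolically active muscle. Smooth muscle-like cells had 41.2 CPM of it (10 UMIs; 19.8 to 75.7) in ApcMin and 80.5 CPM (38 UMIs; 56.9 to 110.5) in VApcMinL. In lymphatic endothelial-like cells it was at 47.7 and 36.9 CPM, in glial-like cells at 31.1 and 34.8 CPM, in fibroblast-like cells at 23.5 and 24.5 CPM, and in myeloid-like cells at 21.4 and 20.0 CPM. *Vegfb* was thus spread over many classes. In ApcMin no neighbours among its first 10 classes differed beyond counting error. In VApcMinL smooth muscle-like cells stood above lymphatic endothelial-like cells (2.18 times; 1.37 to 3.47), and glial-like above fibroblast-like cells (1.42 times; 1.005 to 1.96). Blood endothelial-like cells were low for this ligand, at 6.33 and 9.01 CPM. Fibroblast-like cells held 80.9% and 74.0% of its UMIs, or 36.3% and 26.4% with cells classed singly. By molecules myeloid-like cells followed in ApcMin (5.76%) and plasma cell-like cells in VApcMinL (4.28%), while smooth muscle-like cells held 0.789% and 2.90%. Cluster 13 had the highest level among their 5 clusters (49.9 and 44.7 CPM), and the smaller *Bmp5* and *Bmp7* group of the finer clustering had 62.1 and 58.0 CPM.

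*Vegfc* encodes the main ligand for lymphatic growth. Fibroblast-like cells had 37.6 CPM (35.8 to 39.5) and 38.5 CPM (36.6 to 40.5), and held 97.0% and 87.0% of its UMIs, or 54.4% and 37.2% with cells classed singly. Blood endothelial-like cells had 29.1 CPM (18.5 to 43.7) and 50.2 CPM (42.8 to 58.4). Lymphatic endothelial-like cells, which carry the receptor, gave 1 *Vegfc* UMI in each library. The blood endothelial-like level was 7.93 times the lymphatic one (1.29 to 327) in ApcMin and 57.1 times (10.1 to 2271) in VApcMinL, and both ratios rest on that single lymphatic UMI. In ApcMin no neighbours among fibroblast-like, blood endothelial-like and smooth muscle-like cells differed beyond counting error. In VApcMinL blood endothelial-like cells stood above fibroblast-like cells (1.30 times; 1.10 to 1.53), but 10 of the 676 cells held 67 of their 167 UMIs, with smooth muscle markers at 1177 against 154 CPM in the others, so the order of these classes is not settled. Fibroblast-like cells stood above smooth muscle-like cells (2.27 times; 1.15 to 5.28). Among fibroblast-like clusters, cluster 4, the *Grem1* cluster, was first in both libraries, at 67.7 and 53.1 CPM, and cluster 13 last, at 8.53 and 9.20 CPM. Immune cells added almost none of it: myeloid-like cells had 2.94 and 1.20 CPM.

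*Vegfd* encodes the other lymphatic ligand. Fibroblast-like cells had 88.6 CPM of it (85.8 to 91.4) in ApcMin and 84.9 CPM (82.1 to 87.8) in VApcMinL, and held 99.6% and 97.7% of its UMIs, or 49.5% and 49.2% with cells classed singly. The next class by level was glial-like in ApcMin (2 UMIs, 15.6 CPM) and smooth muscle-like in VApcMinL (16 UMIs, 33.9 CPM). The fibroblast-like level was 5.69 times (1.57 to 47.0) and 2.51 times (1.54 to 4.39) as high. Smooth muscle-like cells of ApcMin gave 2 UMIs, and myeloid-like cells 0 and 3. Of 36 UMIs in blood endothelial-like cells of VApcMinL, 26 lay in 1 cell. The 10 leading cells of that class held fibroblast markers at a summed 4317 CPM, against 388 CPM in the other cells, with *Col1a2* at 1112 against 42.3 CPM. Pericyte markers were at 1797 against 346 CPM and smooth muscle markers at 707 against 169 CPM, and the source of these UMIs was not tested. Among fibroblast-like clusters *Vegfd* lay mainly in clusters 0 (112 and 117 CPM), 2 (103 and 71.2 CPM) and 4 (65.8 and 96.9 CPM). Cluster 1 had 46.1 and 54.3 CPM, and cluster 13 gave 3 UMIs in each library.

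*Pgf* encodes placental growth factor, which binds the *Flt1* product. It was highest in myeloid-like cells, at 237 CPM (221 to 254) and 178 CPM (162 to 196). Fibroblast-like cells had 39.5 CPM (37.7 to 41.4) and 54.3 CPM (52.0 to 56.6). The myeloid-like level was thus 6.00 and 3.29 times the fibroblast-like one, beyond counting error in both libraries. Lymphatic endothelial-like cells followed, at 18.4 CPM (5 UMIs) and 43.0 CPM (49 UMIs), then smooth muscle-like cells, at 16.5 and 25.4 CPM, and no neighbours among these 3 classes differed beyond counting error. By molecules the order was the reverse, since myeloid-like cells are few: fibroblast-like cells held 66.9% and 78.0% of *Pgf* UMIs and myeloid-like cells 31.3% and 16.2%. With cells classed singly the fibroblast-like share was 34.2% and 32.2%. Among fibroblast-like clusters it was highest in cluster 2, at 64.0 and 76.7 CPM. Cluster 1 had 45.6 and 70.5 CPM and cluster 4 had 45.6 and 45.4 CPM, so these 2 were level in ApcMin. Cluster 0 had 24.0 and 36.05 CPM, and cluster 13 was again low, at 2.63 and 7.88 CPM.

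*Pgf* mRNA was also concentrated in few myeloid-like cells. The 10 leading cells held 40.4% and 50.6% of the class's *Pgf*. *Mmp9*, which encodes a gelatinase, was at 2086 and 2589 CPM in them against 417 and 403 CPM in the others. *Mrc1* was at 334 and 401 CPM in them against 713 and 666 CPM. *Hilpda* was at 571 and 897 CPM against 173 and 143 CPM. For *Vegfa*, *Mmp9* was at 2080 and 1888 CPM in its leading cells against 329 and 456 CPM, so high *Mmp9* and *Hilpda* and low *Mrc1* marked the leading cells of both ligands.

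**Figure D3:**
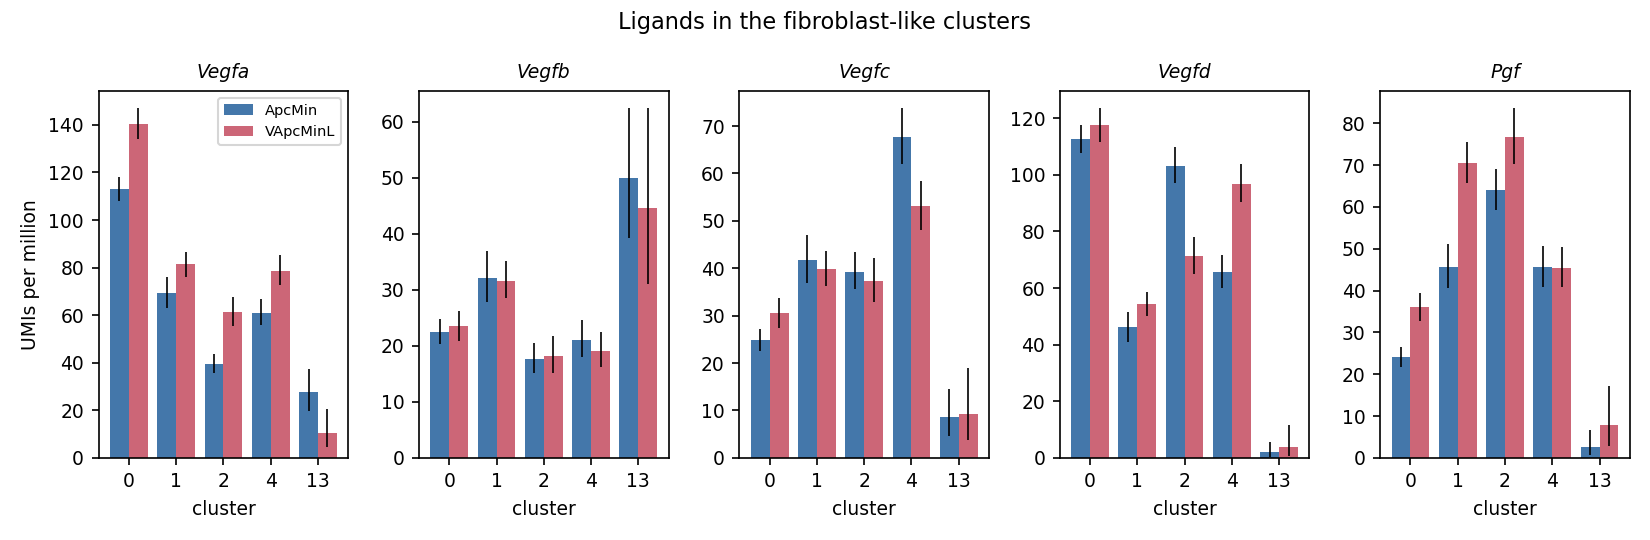
Level of the 5 ligand genes, in CPM, in each of the 5 fibroblast-like clusters and both libraries, with 95% counting intervals as error bars. *Vegfa* and *Vegfd* are highest in cluster 0, *Vegfc* in cluster 4, *Pgf* in cluster 2 and *Vegfb* in cluster 13.

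Depth and free RNA bear on the shares of cells with a UMI. Fibroblast-like cells had medians of 13090 and 9920 UMIs, erythroid-like cells 7302 and 4580. Of the fibroblast-like cells, 42.5% and 37.9% held *Vegfa*, as did 0.581% and 1.83% of erythroid-like cells, which should lack it. With every cell thinned to 1000 UMIs, the fibroblast-like shares were 6.45% and 7.86%. The thinned share was thus higher in VApcMinL, where the unthinned share was lower. For *Vegfb*, *Vegfc*, *Vegfd* and *Pgf* the unthinned shares in fibroblast-like cells were 24.8% and 20.0%, 31.7% and 27.4%, 44.4% and 36.3%, and 28.9% and 29.3%. Their thinned shares were 2.70% and 2.07%, 3.84% and 3.93%, 7.56% and 6.65%, and 3.96% and 4.89%. In empty droplets *Vegfa* was at 34.0 and 67.8 CPM and *Pgf* at 34.9 and 17.5 CPM, so free RNA of these ligands was present in both libraries. *Vegfb*, *Vegfc* and *Vegfd* were there at 9.41 and 11.8 CPM, 10.2 and 13.6 CPM, and 13.0 and 23.1 CPM.

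The receptors followed the division of the vessels. *Flt1* lay in blood endothelial-like cells and was close to absent from lymphatic ones, *Flt4* lay mainly in lymphatic endothelial-like cells, and *Kdr* in both. Stromal and immune cells held few receptor molecules. Because the members were not used for clustering, these levels were not built into the classes, although genes that go with them were.

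The starts of the 3 receptor genes are shown because their mRNAs share this endothelial pattern. They come from RefSeq (build GRCm38.p6), which held promoters for all 10 genes, 12 in all. Each runs from 250 bases before to 50 bases after the start, 5′ to 3′ on the gene's own strand. Capitals mark GGAA on either strand (GGAA or TTCC), the core letters that ETS factors bind, a family with many endothelial members. *Kdr* (chr5:75978406-75978705, minus strand) has 5 matches, *Flt1* (chr5:147725962-147726261, minus strand) 4 and *Flt4* (chr11:49609429-49609728, plus strand) 2. The letters are common, since 96.0% of 32851 promoters hold them at least once with a median of 3 matches, and 28.6%, 46.3% and 84.6% of promoters have at least as many as these 3. A match describes the sequence and does not show a bound site.
Kdr: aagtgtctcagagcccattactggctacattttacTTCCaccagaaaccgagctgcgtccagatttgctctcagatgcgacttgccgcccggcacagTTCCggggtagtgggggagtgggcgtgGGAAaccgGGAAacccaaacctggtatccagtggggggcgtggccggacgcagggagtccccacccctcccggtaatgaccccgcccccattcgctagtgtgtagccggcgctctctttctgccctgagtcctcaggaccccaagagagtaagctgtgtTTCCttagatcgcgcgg
Flt1: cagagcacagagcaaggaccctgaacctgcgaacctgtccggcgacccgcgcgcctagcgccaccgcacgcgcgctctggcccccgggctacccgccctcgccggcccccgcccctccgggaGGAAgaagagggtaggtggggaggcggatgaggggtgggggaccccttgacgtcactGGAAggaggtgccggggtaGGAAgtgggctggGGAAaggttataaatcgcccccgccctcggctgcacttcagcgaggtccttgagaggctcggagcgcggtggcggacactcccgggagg
Flt4: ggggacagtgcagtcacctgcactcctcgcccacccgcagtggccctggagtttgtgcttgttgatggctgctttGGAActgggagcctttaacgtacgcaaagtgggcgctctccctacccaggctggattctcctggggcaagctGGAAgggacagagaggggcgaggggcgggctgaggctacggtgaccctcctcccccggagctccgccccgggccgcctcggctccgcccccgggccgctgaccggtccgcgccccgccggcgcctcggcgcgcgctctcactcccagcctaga

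*Kdr* encodes VEGFR2, the main signalling receptor for VEGF-A. Blood endothelial-like cells had 1918 CPM of it (1823 to 2017) in ApcMin and 1487 CPM (1446 to 1529) in VApcMinL. Lymphatic endothelial-like cells had 910.1 CPM (800.4 to 1031) in ApcMin and 823 CPM (771 to 877) in VApcMinL. The blood level was thus 2.11 times (1.84 to 2.42) and 1.81 times (1.68 to 1.94) the lymphatic level. With a limit of 10% on mitochondrial UMIs the log2 ratio of blood over lymphatic cells in ApcMin was 2.01 instead of 1.08, and with cells classed singly it was 1.96 there and 1.54 instead of 0.85 in VApcMinL. The lymphatic endothelial-like class was not made of the same cells in these settings. It held 533216 and 491107 UMIs in ApcMin instead of 272493, and 1682739 and 1738397 in VApcMinL instead of 1139588. This also holds for *Flt4* and *Nrp2* below. *Kdr* was found in 97.0% and 90.4% of blood endothelial-like cells (78.5% and 66.1% thinned) and in 97.1% and 90.6% of lymphatic ones (47.1% and 56.0% thinned). In fibroblast-like cells, which should lack it, the shares were 1.20% and 1.71% at 1.05 and 2.30 CPM. Those cells were deeper, with medians of 13090 and 9920 UMIs against 4699 and 3780 in blood endothelial-like cells. Blood endothelial-like cells held 83.0% and 82.1% of *Kdr* UMIs and lymphatic ones 13.6% and 15.6%.

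*Flt1* encodes VEGFR1, which binds VEGF-A, VEGF-B and PlGF and also exists as a soluble decoy. Blood endothelial-like cells had 3056 CPM of it (2935 to 3180) in ApcMin and 3265 CPM (3204 to 3327) in VApcMinL. Lymphatic endothelial-like cells had 0 UMIs in ApcMin, with an upper limit of 13.5 CPM, and 4 UMIs (3.51 CPM) in VApcMinL. In VApcMinL the blood level was 930.2 times the lymphatic level (363 to 3415), so this receptor all but divided the vessel types. *Flt1* was found in 97.0% and 98.5% of blood endothelial-like cells (87.4% and 92.2% thinned), against 1.11% and 1.86% of fibroblast-like cells. Blood endothelial-like cells held 94.5% and 97.3% of its UMIs. Myeloid-like cells, some of which are known to carry VEGFR1, had 4.99 and 3.61 CPM. Of 61 *Flt1* UMIs in epithelial-like cells of ApcMin, 53 lay in 1 cell.

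*Flt4* encodes VEGFR3, the receptor for VEGF-C and VEGF-D. Lymphatic endothelial-like cells had 1428 CPM of it (1289 to 1577) in ApcMin and 1421 CPM (1352 to 1492) in VApcMinL. The blood endothelial-like level was 93.6 CPM (73.5 to 117.6) in ApcMin and 77.5 CPM (68.3 to 87.5) in VApcMinL. The lymphatic level was thus 15.2 times (11.9 to 19.8) and 18.3 times (16.1 to 21.0) the blood level. The log2 ratio of lymphatic over blood cells in ApcMin was 2.99 with the mitochondrial limit at 10%, instead of 3.93, and 3.04 with cells classed singly. In VApcMinL the latter gave 3.55 instead of 4.20. All lymphatic endothelial-like cells of ApcMin and 93.2% of those of VApcMinL held a UMI (85.3% and 65.97% thinned), as did 33.3% and 26.0% of blood endothelial-like cells (9.63% and 6.66% thinned). Fibroblast-like cells held it in 0.154% and 0.259% of cells. *Flt4* was thus found in both kinds of vessel, at a much lower level in blood endothelial-like cells, which held 15.6% and 13.6% of its UMIs.

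**Figure D4:**
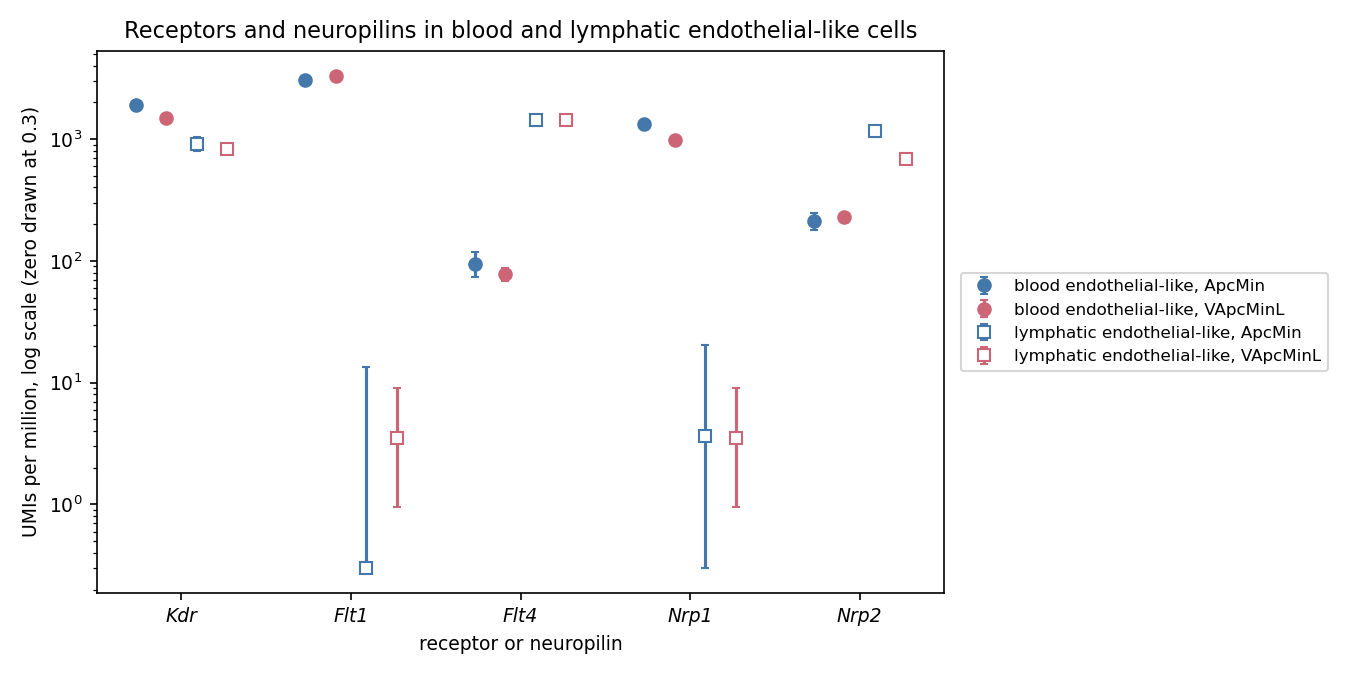
Level of the 3 receptor and 2 neuropilin genes, in CPM on a log scale, in blood and lymphatic endothelial-like cells of both libraries, with 95% counting intervals and zero drawn at the bottom. *Flt1* and *Nrp1* are much higher in blood cells, *Flt4* and *Nrp2* are higher in lymphatic cells, and *Kdr* is high in both.

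Receptor pairs were counted in single cells, because VEGF receptors act as dimers and with coreceptors. *Kdr* and *Flt1* were found together in 94.8% and 89.6% of blood endothelial-like cells (71.9% and 62.3% thinned). In lymphatic endothelial-like cells the same pair was found in 0 of 34 and 2 of 191 cells. *Kdr* and *Flt4*, the pair of lymphatic signalling, were found together in 97.1% and 87.4% of lymphatic endothelial-like cells (47.1% and 38.7% thinned). Blood endothelial-like cells held that pair in 33.3% and 25.15% of cells (8.89% and 5.47% thinned). Most single vessel cells therefore carried mRNA of *Kdr* and of the second receptor of their vessel type.

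*Nrp1* encodes a coreceptor of VEGF-A that strengthens VEGFR2 signalling. Blood endothelial-like cells had 1325 CPM of it (1246 to 1408) in ApcMin and 976 CPM (942 to 1010.0) in VApcMinL. Lymphatic endothelial-like cells gave 1 and 4 UMIs (3.67 and 3.51 CPM), so *Nrp1* divided the vessels much as *Flt1* did. Unlike the receptors it was widespread in stroma: fibroblast-like cells had 209 CPM (205 to 213) and 272 CPM (267 to 277). Smooth muscle-like cells had 165 and 106 CPM, myeloid-like cells 118 and 85.0 CPM, and glial-like cells 77.8 and 109 CPM. In ApcMin fibroblast-like, smooth muscle-like, myeloid-like and glial-like cells formed a row in which no neighbours differed beyond counting error. Smooth muscle-like cells stood in it on 40 UMIs, and classes that are not neighbours, such as fibroblast-like and myeloid-like cells, were not compared. In VApcMinL fibroblast-like cells stood above the others, and no neighbours among glial-like, smooth muscle-like and myeloid-like cells differed. Fibroblast-like cells held 85.3% and 73.9% of *Nrp1* UMIs and blood endothelial-like cells 9.78% and 22.3%.

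A UMI of *Nrp1* was found in 91.8% and 86.5% of blood endothelial-like cells (71.9% and 56.4% thinned), in 77.7% and 76.3% of fibroblast-like cells (19.2% and 24.6% thinned), and in 0.581% and 0.548% of erythroid-like cells. *Kdr* and *Nrp1* were found together in 90.4% and 80.2% of blood endothelial-like cells (57.8% and 40.4% thinned). The gene was thus part of both the vessel and the stroma around it. Among fibroblast-like clusters it was highest in cluster 13, at 557 and 520.3 CPM. Cluster 1 had 310.4 and 315 CPM, cluster 2 had 279 and 446 CPM, cluster 4 had 160 and 174 CPM, and cluster 0 had 125 and 188 CPM. Cluster 2 stood above cluster 1 in VApcMinL and below it in ApcMin.

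*Nrp2* encodes the coreceptor for VEGF-C and VEGF-D on lymphatic vessels. It was highest in lymphatic endothelial-like cells, at 1163 CPM (1039 to 1299) in ApcMin and 683 CPM (636 to 732) in VApcMinL. Blood endothelial-like cells had 211 CPM (180.5 to 246) in ApcMin and 228 CPM (212 to 244) in VApcMinL. The lymphatic level was thus 5.50 times (4.55 to 6.68) and 2.999 times (2.71 to 3.32) the blood level. With 10% as the mitochondrial limit the log2 ratio in ApcMin was 1.51 instead of 2.46, with cells classed singly it was 1.65, and with cells thinned it was 1.87. In VApcMinL own markers gave 0.97 instead of 1.58. Smooth muscle-like cells had 148 and 125 CPM, fibroblast-like cells 82.0 and 81.3 CPM, and myeloid-like cells 72.2 and 44.1 CPM. In ApcMin blood endothelial-like and smooth muscle-like cells did not differ beyond counting error, nor did fibroblast-like and myeloid-like cells. In VApcMinL each of these neighbours differed.

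A UMI of *Nrp2* was found in 88.2% and 79.6% of lymphatic endothelial-like cells (50% and 46.1% thinned), and in 0.290% and 0.366% of erythroid-like cells. *Flt4* and *Nrp2* were found together in 88.2% and 76.4% of lymphatic endothelial-like cells (38.2% and 31.9% thinned). Cluster 13 of the fibroblast-like class stood far apart for this gene, at 1015 and 1039 CPM, beside 1163 and 683 CPM in lymphatic endothelial-like cells. Its level was thus above the lymphatic one in VApcMinL, while in ApcMin the intervals overlapped. The next cluster, cluster 1, had 104 and 102 CPM, followed by cluster 4 (74.4 and 83.3 CPM), cluster 2 (41.8 and 39.6 CPM) and cluster 0 (21.0 and 24.6 CPM). Cluster 13, made of *Thbs2*, *Scg2* and *Fibin* cells, was thus first for both neuropilins and for *Vegfb*, and last for the other ligands.

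In empty droplets the receptor and neuropilin genes were also present: *Kdr* at 55.6 and 29.1 CPM, *Flt1* at 83.8 and 49.6 CPM, and *Flt4* at 4.98 and 8.72 CPM. *Nrp1* was at 69.2 and 52.9 CPM and *Nrp2* at 31.8 and 28.7 CPM. Empty droplets hold free RNA alone, which was put at 3.23% and 3.90% of the UMIs of fibroblast-like cells by immunoglobulin genes. Levels in empty droplets thus do not compare directly with levels in those cells.

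Between the libraries, the class of highest level was the same for *Vegfd*, *Pgf*, the receptors and the neuropilins. It differed for *Vegfa*, *Vegfb* and *Vegfc*, and for *Vegfb* and *Vegfc* the first place in ApcMin was within counting error. In fibroblast-like, myeloid-like and endothelial-like cells, most members with at least 100 UMIs in the class were within 2-fold. In fibroblast-like cells *Vegfa*, *Pgf* and *Nrp1* were higher in VApcMinL, and *Vegfb*, *Vegfc*, *Vegfd* and *Nrp2* were close to equal. In blood endothelial-like cells *Kdr* and *Nrp1* were lower in VApcMinL. *Vegfa* and *Vegfc* were higher there, but within counting error once cells were thinned. In myeloid-like cells all measured members were at or below their ApcMin level, as were most genes of that class. In lymphatic endothelial-like cells *Flt4* was within counting error of equal and *Nrp2* lower. *Nrp2* was within counting error once cells were thinned, and its direction turned with the *Nrp2* UMIs of its 10 leading cells set to 0.

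In fibroblast-like cells 2 of the 9 genes with at least 100 UMIs, *Kdr* and *Flt1*, were past 2-fold, both higher in VApcMinL. Of all 12896 genes with at least 100 UMIs in that class, 4.82% were past 2-fold (500 higher and 121 lower), and the median log2 ratio was 0.01. *Kdr* was at 1.05 and 2.30 CPM, a ratio of 2.19 (1.52 to 3.19), and *Flt1* at 1.10 and 3.06 CPM, a ratio of 2.78 (1.98 to 3.98). Both rest on few molecules, 46 and 91 UMIs for *Kdr* and 48 and 121 for *Flt1*. Free RNA was put at 3.23% and 3.90% of the UMIs of this class by immunoglobulin genes, and with it subtracted no UMI of either gene was left in ApcMin, so there was no ratio. The levels in ApcMin were thus not above this estimate of free RNA. In empty droplets both genes were lower in VApcMinL, at 55.6 and 29.1 CPM for *Kdr* and 83.8 and 49.6 CPM for *Flt1*. No subtracted level is given here for VApcMinL, and the part of free RNA in the ratios was not tested. Neither ratio is read as a difference between fibroblasts. Blood endothelial markers moved with them: all 12 were above 0 in both libraries, with a sum of 128 and 228 CPM. *Eng* led the list at 93.3 and 102.3 CPM, so most of the rise lay in its other genes. No gate removed endothelial cells, and the markers' part in the result was not tested. The finer clustering set apart a mesothelial-like group led by *Msln*, *Slpi* and *Upk3b* (8 and 30 cells), which held 7 and 23 *Kdr* UMIs (24.6 and 39.3 CPM). With that clustering the log2 ratio of *Kdr* in the remaining fibroblast-like cells was 0.98 instead of 1.13, no longer past 2-fold. Nor was *Kdr* past 2-fold with doublets kept (0.99), with outlier cells left out (0.99), with a minimum of 2000 UMIs (0.85) or with no integration (0.97). With cells classed singly it was at 0.83 and with cells thinned at 0.97, and there its interval also reached below 0. For *Flt1* the thinned value was 1.21 instead of 1.48, also with an interval that reached below 0. The more abundant members were all below 2-fold.

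For the abundant members in fibroblast-like cells the ratios of VApcMinL over ApcMin were narrow. *Vegfa* had a ratio of 1.23 (1.17 to 1.28), *Pgf* of 1.37 (1.29 to 1.46) and *Nrp1* of 1.30 (1.26 to 1.34). These genes were higher in VApcMinL beyond counting error, at less than 2-fold. *Vegfb* had 1.04 (0.955 to 1.14), *Vegfc* 1.02 (0.955 to 1.10), *Vegfd* 0.959 (0.915 to 1.004) and *Nrp2* 0.992 (0.945 to 1.04), so both lymphatic ligands were within counting error of equal. Within clusters 0, 1, 2, 4 and 13, *Vegfa* had ratios of 1.24, 1.18, 1.56, 1.29 and 0.381, so it was lower in cluster 13 (0.155 to 0.822, from 42 and 8 UMIs) and higher in the others. *Pgf* had 1.55 and 1.20 in clusters 1 and 2 and 0.996 in cluster 4, and it was higher in cluster 0 (24.0 and 36.05 CPM). *Nrp1* had 1.503 and 1.60 in clusters 0 and 2, 1.09 in cluster 4, and 1.02 and 0.934 in clusters 1 and 13, the last pair within counting error. *Vegfd* was lower in cluster 2 (0.690) and higher in clusters 4 (1.47) and 1 (1.18), and *Vegfc* was lower in cluster 4 (0.784) and higher in cluster 0 (1.23). With cells classed singly, *Vegfd* and *Nrp2* in the class were above equal beyond counting error (log2 ratios of 0.20 and 0.18), and with doublets kept so were *Vegfb* (0.13) and *Nrp2* (0.11). Over 16 alternatives the log2 ratio ran from -0.40 to 0.13 for *Vegfb*, -0.21 to 0.20 for *Vegfd* and -0.08 to 0.24 for *Nrp2*. The near-equal class level of *Vegfd* thus covered differences of opposite sign in its clusters.

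Other lists also differed within fibroblast-like cells. Erythroid markers, which Ter119 should have removed, were all above 0, at a summed 15340.0 and 2708 CPM led by *Hbb-bs*. Epithelial markers, the target of the EpCAM gate, were all above 0 at 36.5 and 297 CPM, led by *Krt19* and *Fabp2*. Adipocyte markers summed to 5.77 CPM (5 of 6 above 0, with *Lep* at 0) and 239 CPM (all 6, led by *Cfd*). Hemoglobin and immunoglobulin genes together held 1.98% and 0.891% of the class's UMIs. The part of these lists in the ratios of *Vegfa*, *Pgf* and *Nrp1* was not tested.

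In blood endothelial-like cells 0 of 7 members with at least 100 UMIs were past 2-fold, beside 3.29% of all 5405 genes (158 higher and 20 lower). *Kdr* had a ratio of 0.775 (0.732 to 0.821) and *Nrp1* of 0.736 (0.687 to 0.790), both lower in VApcMinL. *Flt1* had 1.07 (1.02 to 1.12), which was within counting error once cells were thinned or hemoglobin and immunoglobulin genes were left out of the totals (log2 ratios of 0.10 and 0.03), and the median log2 ratio of all genes was 0.02. The mRNAs of VEGFR2 and its coreceptor were thus both lower, while that of VEGFR1 was close to equal. *Flt4* had 0.827 (0.637 to 1.09) and *Nrp2* 1.08 (0.910 to 1.28), both within counting error. Ligand mRNA in these cells was higher in VApcMinL: *Vegfa* had 1.80 (1.24 to 2.68) and *Vegfc* 1.72 (1.11 to 2.79). In the 10 leading *Vegfa* cells of VApcMinL fibroblast markers summed to 4664 CPM against 394 CPM in the others, and blood endothelial markers to 11316 against 20160 CPM. In the 10 leading *Vegfc* cells of VApcMinL pericyte markers summed to 1251 against 373 CPM, and blood endothelial markers to 10032 against 20211 CPM. What the sources of these markers add to the result was not tested, and settings that leave out leading cells follow. Without the 5% of cells of most UMIs of the gene the log2 ratios were 0.99 for *Vegfa* and 1.42 for *Vegfc*, instead of 0.84 and 0.78, and the latter was within counting error. Without the 10 leading cells, which are 10 of 135 in ApcMin but 10 of 676 in VApcMinL, they were 2.15 and 4.47. With cells thinned both were within counting error (0.45 and 0.92), as was *Vegfc* with cells classed singly (0.28). With the *Kdr* UMIs of its 10 leading cells set to 0, which takes a larger part of the ApcMin cells, its log2 ratio was -0.09 instead of -0.37, within counting error.

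Markers of other cells moved with these results. Epithelial markers in blood endothelial-like cells summed to 32.9 CPM in ApcMin, with 6 of 12 above 0 and *Epcam*, *Krt18*, *Cdh1*, *Phgr1*, *Muc2* and *Chga* at 0, and to 520.4 CPM in VApcMinL, with 10 of 12 above 0, led by *Fabp1*. The EpCAM gate was meant to remove epithelial cells, but epithelial-like cells still made up 0.953% and 4.12% of cells. Pericyte markers were at 54.4 CPM (4 of 8) and 405 CPM (8 of 8, led by *Rgs5*), and no gate removed pericytes. Fibroblast markers were at 249 and 549 CPM, with all 10 above 0 and *Dcn* leading in VApcMinL. Erythroid markers were higher in ApcMin, at 71106 and 21928 CPM, led by *Hbb-bs*, and all 8 were above 0. The part of these lists in the result was not tested.

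In lymphatic endothelial-like cells 0 of 3 members with at least 100 UMIs were past 2-fold, beside 3.3% of all 2635 genes (69 higher and 18 lower). *Flt4* had a ratio of 0.995 (0.890 to 1.12) and *Kdr* of 0.904 (0.786 to 1.04), both within counting error of equal. *Flt4* was above equal beyond counting error with the mitochondrial limit at 10% (log2 ratio 0.36) and with cells classed singly (0.23), and *Kdr* with that limit (0.23). *Nrp2* had 0.587 (0.514 to 0.671), so the lymphatic coreceptor was lower in VApcMinL. Without the 5% of cells of most *Nrp2* UMIs the log2 ratio was -0.74 instead of -0.77. With the 10 leading cells of each library left out it was -0.06, and with only their *Nrp2* UMIs set to 0 it was 0.44, the reverse. Those cells are 10 of 34 in ApcMin but 10 of 191 in VApcMinL, so both settings lower the ApcMin level more by their make. Set to 0 in the same way, *Flt4* had 0.70 and *Kdr* 0.75. With cells thinned *Nrp2* was at -0.40, within counting error. Epithelial markers in this class, the target of the EpCAM gate, summed to 14.7 CPM (4 of 12 above 0, led by *Phgr1*, with *Epcam*, *Krt8*, *Krt19*, *Cdh1*, *Vil1*, *Fabp1*, *Muc2* and *Chga* at 0) and 412 CPM (11 of 12, led by *Fabp2*, with *Chga* at 0). Erythroid markers, the target of Ter119, summed to 17729 CPM and 1667 CPM, led by *Hbb-bs*. Their part in the result was not tested.

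**Figure D5:**
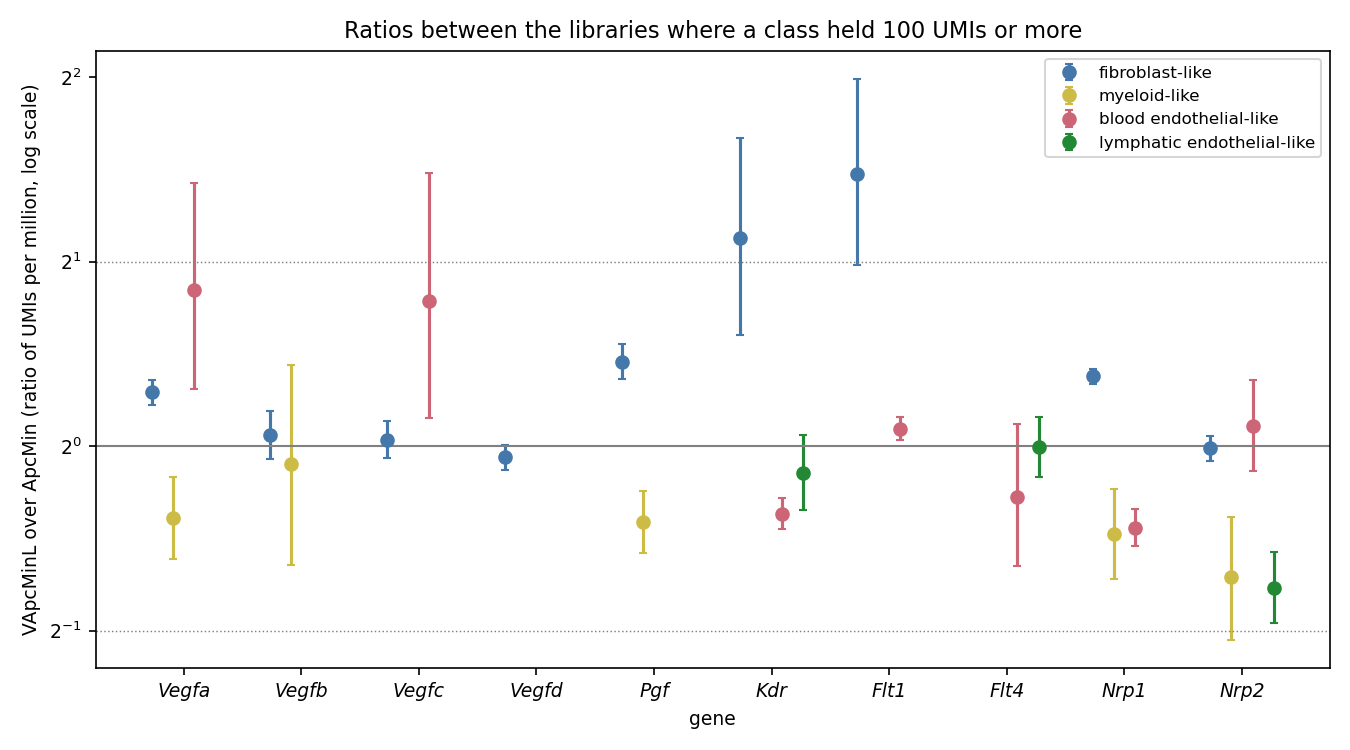
Ratio of VApcMinL over ApcMin on a log scale in 4 cell classes, drawn where a class held 100 UMIs or more of the gene, with 95% counting intervals and lines at 0.5, 1 and 2. *Kdr* and *Flt1* in fibroblast-like cells lie above 2, and all other values lie between 0.5 and 2.

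In myeloid-like cells 0 of 5 members with at least 100 UMIs were past 2-fold, beside 4.28% of all 6071 genes (63 higher and 197 lower). The median log2 ratio of all genes there was -0.24, so the members are read against that value. *Vegfa* had a log2 ratio of -0.39 and *Pgf* of -0.41. Both values lie below the median of all genes, but a difference from that median beyond counting error was not tested. *Nrp1* was at -0.47, *Nrp2* at -0.71 and *Vegfb* at -0.10. As ratios these were 0.765 (0.655 to 0.890) for *Vegfa*, 0.753 (0.669 to 0.846) for *Pgf*, 0.720 (0.607 to 0.852) for *Nrp1*, 0.610 (0.483 to 0.767) for *Nrp2* and 0.935 (0.639 to 1.36) for *Vegfb*. Depth differed most in this class, with medians of 8009 and 2058 UMIs.

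Several settings moved the myeloid-like values. With cells thinned to 1000 UMIs the log2 ratio was -1.22 for *Vegfa*, -1.51 for *Vegfb* and -1.004 for *Pgf*. Without the 5% of cells of most UMIs of the gene it was -2.18 for *Vegfa*, -1.21 for *Pgf* and -2.21 for *Nrp2*. With free RNA subtracted by immunoglobulin genes *Pgf* was at 0.16, the reverse of -0.41 though within counting error, and by epithelial genes it was at -0.46. Free RNA in the class was put at 10.35% and 53.05% by the former and at 16.4% and 6.64% by the latter, so these scales disagree. With doublets kept *Nrp1* was at -0.10, and with outlier cells left out *Vegfa* was at -0.13, both within counting error. The share of myeloid-like cells with a *Pgf* UMI was 30.2% and 17.0% (15.4% and 8.71% thinned), against 0.639% and 0.183% of erythroid-like cells. For *Vegfa* the thinned shares were 5.23% and 1.89%. Plasma cell markers in the class, which the CD45 gate was meant to remove, summed to 12931 CPM (8 of 8, led by *Igha*) and 84057 CPM (8 of 8, led by *Igkc*). Mast cell markers summed to 18078 CPM in ApcMin (6 of 6, led by *Mcpt1*) and 0.802 CPM in VApcMinL, where *Mcpt1*, *Mcpt2*, *Mcpt4* and *Cma1* were at 0. Leaving out the mast-marker cells (26 and 0) was among the alternatives, and the class of ApcMin then held 3080312 UMIs instead of 3405718. The part of the plasma cell markers in the result was not tested.

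In smooth muscle-like cells no member reached 100 UMIs, so the values carry wide intervals. *Vegfa* had a ratio of 6.17 (0.913 to 264), *Vegfb* of 1.95 (0.955 to 4.40) and *Vegfd* of 4.11 (0.967 to 36.9). *Nrp1* had 0.643 (0.416 to 0.9998) and *Nrp2* 0.843 (0.548 to 1.31). *Kdr* had 0 and 10 UMIs, 21.2 CPM in VApcMinL against 12.4 CPM for a count of 3 in ApcMin. Blood endothelial markers in this class were at 655 and 462 CPM, with 7 and 10 of 12 above 0, and *Pecam1*, *Cdh5*, *Egfl7*, *Tie1* and *Aqp1* at 0 in ApcMin. These cells therefore showed *Vegfb* and both neuropilins in both libraries, with differences between the libraries that few counts describe. In epithelial-like cells *Vegfa* had a ratio of 1.63 (1.40 to 1.89) and *Vegfb* of 0.210 (0.137 to 0.324; 45 and 47 UMIs). *Flt1* had 0.346 (0.2503 to 0.483; 61 and 105 UMIs), with 53 of the 61 ApcMin UMIs in 1 cell, and the cells were deeper in VApcMinL (medians of 18667 and 40528 UMIs).

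The other genes of the pathway were read from lists, for genes with at least 100 UMIs in a class. Classes with no such gene are not named, apart from lymphatic endothelial-like cells for the first list. Beside the lists stand the shares of all genes past 2-fold: 4.82% in fibroblast-like, 4.28% in myeloid-like, 3.29% in blood endothelial-like and 3.3% in lymphatic endothelial-like cells. The mRNAs of the proteins that cleave and activate VEGF-C and VEGF-D were all measured in fibroblast-like cells. All 6 had a ratio above 1, none past 2-fold, with a median log2 ratio of 0.22 beside 0.01 for all genes. *Ccbe1*, which encodes the cofactor that brings VEGF-C to its protease, was at 17.6 and 19.1 CPM, and *Adamts3*, that protease, at 2.59 and 4.60 CPM. *Furin*, a proprotein convertase, was at 40.6 and 48.4 CPM and *Pcsk5* at 156 and 195 CPM. The mRNAs of the lymphatic ligands and of these 6 genes were thus all found in fibroblast-like cells. Reaching 100 UMIs depends on the size of a class: 12896 genes did so there, and 2635 in lymphatic endothelial-like cells. Levels of the 6 genes were not compared between classes. Among blood endothelial-like cells 2 of the 6 genes were measured with a median of 0.04, in myeloid-like cells 1, at -0.66, and in lymphatic endothelial-like cells 0.

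Receptor partners are phosphatase, ephrin, adaptor, glypican and plexin genes that shape receptor traffic and signalling. Among blood endothelial-like cells all 4 measured were below 1 without passing 2-fold, with a median of -0.08, and in lymphatic endothelial-like cells all 3, with a median of -0.46. In fibroblast-like cells 2 of 6 were above 1 (median -0.15), and in myeloid-like cells 0 of 3 (median -0.39), with *Plxnd1* past 2-fold lower (62.8 and 16.0 CPM). The signalling list had 10 genes measured in blood endothelial-like cells, 4 above and 6 below 1 (median -0.10). It had 9 in fibroblast-like cells (2 above and 7 below 1; median -0.15), 7 in myeloid-like cells, all below 1 (median -0.43), and 1 in smooth muscle-like cells (-0.25), and is not given here for lymphatic endothelial-like cells. So the signalling chain below the receptors was measured in blood endothelial-like cells with no common direction.

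Genes that respond to VEGF in endothelium give a reading of the pathway's output. Among blood endothelial-like cells 11 of 12 were measured, 0 past 2-fold, 6 above and 5 below 1, with a median log2 ratio of 0.08 beside 0.02 for all genes. Lower *Kdr* thus went with no common direction of these genes. Among lymphatic endothelial-like cells 5 were measured with a median of 0.38, and *Adamts1* was past 2-fold lower (165 and 73.7 CPM). In fibroblast-like cells 9 were measured with a median of 0.16. There *Angpt2*, whose product loosens vessels, was past 2-fold higher (0.435 and 4.80 CPM) and *Apln* past 2-fold lower (4.42 and 2.05 CPM). In myeloid-like cells 3 were measured with a median of -0.35, and *Pdgfb* was past 2-fold lower (84.9 and 37.3 CPM). In smooth muscle-like cells *Adamts1* alone was measured, at 0.71.

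Hypoxia genes were listed because low oxygen induces *Vegfa*. In blood endothelial-like cells 11 of 14 were measured, 9 above and 2 below 1, with a median log2 ratio of 0.46 beside 0.02 for all genes. The 3 past 2-fold, beside 3.29% of all genes of the class, were all higher: *Slc2a1*, a glucose transporter gene (19.0 and 38.4 CPM; ratio 2.02, 1.18 to 3.72), *Bnip3*, a mitophagy gene (10.1 and 49.9 CPM; 4.92, 2.44 to 11.6), and *Ankrd37* (16.5 and 45.7 CPM; 2.77, 1.57 to 5.33). They rest on 15, 8 and 13 UMIs in ApcMin. Epithelial, pericyte and fibroblast markers were also higher in this class in VApcMinL (32.9 and 520.4 CPM, 54.4 and 405 CPM, and 249 and 549 CPM), and their part in the result was not tested. In fibroblast-like cells 13 were measured, 8 above and 5 below 1, with a median of 0.20. In myeloid-like cells all 9 measured were below 1 with a median of -0.32, close to the class median. For lymphatic endothelial-like cells 5 had a median of 0.03, and in smooth muscle-like cells 2 had a median of -0.09.

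Class 3 semaphorins share the neuropilins with VEGF, and class A plexins are their signalling partners. In fibroblast-like cells 6 of 7 semaphorin genes were measured, with a median of -0.35, and *Sema3e* was past 2-fold lower (4.37 and 1.57 CPM). In blood endothelial-like cells 3 were measured with a median of 0.20, and *Sema3g*, an arterial gene, was past 2-fold higher (81.0 and 172 CPM). The 3 measured in lymphatic endothelial-like cells had a median of -0.04. Transcripts of the neuropilins' other ligands thus lay in stromal and vessel cells in both libraries. Of 4 plexin genes all were measured in fibroblast-like cells (median -0.05, *Plxna4* past 2-fold higher at 3.89 and 7.99 CPM). For 2 of them in blood endothelial-like cells the median was 0.29, for 2 in lymphatic endothelial-like cells -0.31, and *Plxna4* alone was measured in myeloid-like cells, at -0.86.

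The genes whose pattern over 33 sums of cluster and library was most like each member were found among 13559 genes by Pearson correlation of log2 CPM. The points share 2 libraries and their depth, and the values are descriptions. For *Kdr* they were *Cyyr1* (r 0.964), *Ccm2l* (0.950) and *Gpihbp1* (0.942), for *Flt1* *Alox12* (0.910), *Proser2* (0.907) and *Tmem252* (0.898), and for *Flt4* *Ablim3* (0.943), *Adgrg3* (0.940) and *Cldn5* (0.926). Endothelial genes such as *Gpihbp1*, which anchors lipase on capillaries, and *Cldn5*, a tight junction gene, are among them. For *Vegfa* they were *Itpkc* (0.858), *Alas1* (0.848) and *Hexa* (0.834), for *Vegfb* *Ndufaf7* (0.923), *Ado* (0.917) and *Cinp* (0.914), and for *Pgf* *Tnfaip2* (0.905), *Hfe* (0.887) and *Hmox1* (0.882). For *Vegfc* they were *Fmo2* (0.903), *Runx1t1* (0.899) and *Ppp1r3c* (0.894), and for *Vegfd* *Twist2* (0.920), *Gli1* (0.905) and *Ccdc80* (0.902). *Twist2* and *Gli1* are genes of mesenchymal cells. For *Nrp1* they were *Cdk14* (0.933), *Kctd12b* (0.895) and *Acyp2* (0.887), and for *Nrp2* *Hoxb7* (0.921), *Nxn* (0.901) and *Mfge8* (0.897). Between members the highest values were those of *Kdr* with *Flt4* (0.850) and of *Vegfc* with *Nrp1* (0.802) and *Vegfd* (0.786).

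The 10 genes lie apart in the genome (GRCm38), except that *Kdr* and *Flt1* share chromosome 5 and *Vegfc* and *Nrp1* chromosome 8. The ligand genes are *Vegfa* (ENSMUSG00000023951, chromosome 17 from 46016993 to 46032369), *Vegfb* (ENSMUSG00000024962, chromosome 19 from 6982473 to 6987651), *Vegfc* (ENSMUSG00000031520, chromosome 8 from 54077606 to 54187096), *Vegfd* (ENSMUSG00000031380, chromosome X from 164373378 to 164402650) and *Pgf* (ENSMUSG00000004791, chromosome 12 from 85166635 to 85177790). The receptor genes are *Kdr* (ENSMUSG00000062960, chromosome 5 from 75932827 to 75978458), *Flt1* (ENSMUSG00000029648, chromosome 5 from 147561604 to 147726011) and *Flt4* (ENSMUSG00000020357, chromosome 11 from 49609263 to 49652739). The neuropilin genes are *Nrp1* (ENSMUSG00000025810, chromosome 8 from 128358604 to 128503363) and *Nrp2* (ENSMUSG00000025969, chromosome 1 from 62703285 to 62818695).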

How the data were processed

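The deposited files hold UMI counts of all barcodes of both libraries (10x 3′ chemistry, version 3), made by the authors with Cell Ranger against mm10/GRCm38. The file headers give version 3.1.0 and the labels 2.1.1. The totals were 93203061 UMIs in ApcMin and 101609269 in VApcMinL, of which 78.6% and 70.3% lay in cells.

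Barcodes with at least 1000 UMIs numbered 7844 and 9593, and 251 and 996 of them were left out with more than 20% mitochondrial UMIs. Doublets were scored with Scrublet (scanpy 1.11.5) and the 461 and 591 highest scores left out, at 0.8% per 1000 cells. Cells were integrated by canonical correlation anchors and clustered in Seurat 5.3.0 under R 4.3.3 (20 principal components, resolution 0.2), with the 10 members and 62 pathway genes left out of the variable genes, which left 1641. From 159 markers in 18 lists, each cluster was named after the list with the most markers (at least 3) among its 10 leading genes, or else after the list detected most above the other clusters, with at least 3 markers in 25% of its cells. The members and lists were chosen with earlier results of these data known.

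UMIs were summed per class and library in Python 3.11.15 with pandas 2.3.3, anndata 0.12.19, scipy 1.17.1 and numpy 2.4.6, and drawn with matplotlib 3.10.9. Levels are CPM with exact Poisson intervals, shares have Clopper-Pearson intervals, and ratios exact conditional binomial intervals, all at 95%. Where ApcMin held 0 UMIs no ratio was given, and for *Kdr* in smooth muscle-like cells the level of 3 counts was set beside it. No test was made. Genes past 2-fold were counted among those with at least 100 UMIs in a class. Empty droplets were the barcodes ranked 45000 to 90000 by UMIs (22 to 119 and 27 to 179 UMIs). Likeness used sums of at least 20 cells and genes with at least 200 UMIs. Named genes were the members, the lists, and the 3 most like genes of each member. The 2-fold rule and the ratio intervals were tested on simulated Poisson counts, which treat molecules as independent. The other steps were not tested in this way.

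The alternatives tried were doublets kept, outlier cells left out, a minimum of 2000 UMIs, a mitochondrial limit of 10%, no integration, resolution 0.4, 30 principal components, cells classed by their own markers, cells thinned to 1000 UMIs, and free RNA subtracted. Further alternatives, chosen after the values were seen, were clusters weighted alike, the classes that the sort should remove left out, hemoglobin and immunoglobulin genes (370 genes) left out, mast-marker cells (26 and 0) left out, and 3 ways of leaving out the leading cells of a gene. Values of 3 genes from the marker and pathway lists, among them a gene past 2-fold, are not reported here.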

Additional observations from a re-analysis of the deposited data

Results flagged for a closer look

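Members whose ratio of VApcMinL over ApcMin was above 1 beyond counting error in some class and below 1 beyond it in another are given here side by side, for the fibroblast-like, myeloid-like and endothelial-like classes with at least 100 UMIs of the gene. *Vegfa* had a ratio of 1.225 in fibroblast-like cells, 1.795 in blood endothelial-like cells and 0.7645 in myeloid-like cells. *Pgf* had 1.374 in fibroblast-like cells and 0.7528 in myeloid-like cells. *Kdr* had 2.185 in fibroblast-like cells, where its ApcMin level did not stand above free RNA, and 0.775 in blood endothelial-like cells. *Nrp1* had 1.30 in fibroblast-like cells, 0.7199 in myeloid-like cells and 0.7364 in blood endothelial-like cells. The median log2 ratio of all genes in myeloid-like cells was -0.24. *Pgf* there had a log2 ratio of 0.16 with free RNA subtracted by immunoglobulin genes. *Vegfa* in blood endothelial-like cells was within counting error once cells were thinned. That a ratio differs between cell classes was not tested, since each genotype has a single library.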

How the results depend on the processing

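The main values are the log2 ratios of VApcMinL over ApcMin of *Vegfa* in fibroblast-like cells (0.29), *Kdr* (-0.37) and *Flt1* (0.10) in blood endothelial-like cells and *Flt4* in lymphatic endothelial-like cells (-0.01). Beside them stand the ratios between the vessel classes, the fibroblast-like shares of *Vegfa* and *Vegfc*, and the counts of genes past 2-fold. A value was the same inside the 95% interval of the main value (a count, within 1.5-fold), reversed where the main interval left out 0 and the sign turned, and otherwise moved. The main interval of *Flt4* held 0, so its changes of sign are not among the reversed. Of 205 values of these under alternatives, 149 were the same, 56 moved and 0 reversed. Of 403 values of the other results, 310 were the same, 91 moved and 2 reversed. The cause of each move was not tested. With 1 library per genotype there was no paired analysis to make.

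With doublets kept, *Kdr* was at -0.1491 and *Flt1* at 0.3198, the *Vegfa* share was 79.05% and 54.24%, the *Vegfc* share 94.39% and 77.93%, and 139 genes instead of 87 were past 2-fold in lymphatic endothelial-like cells. With outlier cells left out, *Vegfa* was at 0.1929, its share was 85.78% and 60.33%, and the *Vegfc* share in VApcMinL 81.83%. With a minimum of 2000 UMIs, *Vegfa* was at 0.2033, its share 78.47% and 53.97%, and the *Vegfc* share 95.57% and 80.38%.

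With a mitochondrial limit of 10%, *Vegfa* was at 0.1522 and *Flt4* at 0.3641. The log2 ratio of blood over lymphatic cells was 2.011 and 1.422 for *Kdr*, and that of lymphatic over blood cells 2.987 and 3.624 for *Flt4*. The *Vegfa* share was 83.26% and 68.52%, the *Vegfc* share in VApcMinL 82.05%, and 151 genes were past 2-fold in lymphatic endothelial-like cells. With cells classed singly, *Flt4* was at 0.2327, the vessel ratios were 1.959 and 1.541 for *Kdr* and 3.037 and 3.55 for *Flt4*, and the shares 36.49% and 23.15% for *Vegfa* and 54.45% and 37.25% for *Vegfc*. Then 236 genes instead of 621 were past 2-fold in fibroblast-like cells.

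With cells thinned to 1000 UMIs, *Flt4* was at -0.2514, the vessel ratio of *Kdr* in ApcMin was 1.316 and the *Vegfa* share in VApcMinL 70.51%. Genes past 2-fold then numbered 164 instead of 621 in fibroblast-like, 167 instead of 260 in myeloid-like, 46 instead of 178 in blood endothelial-like and 18 instead of 87 in lymphatic endothelial-like cells. With free RNA subtracted by immunoglobulin genes, 830 genes instead of 260 were past 2-fold in myeloid-like cells, and *Pgf* there reversed from -0.41 to 0.1619. For *Kdr* and *Flt1* in fibroblast-like cells neither subtraction gave a value, since nothing was left in ApcMin.

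Further alternatives were chosen after the values were seen. Without the classes that the sort was meant to remove, the *Vegfa* share was 98.89% and 92.48% and the *Vegfc* share 98.38% and 89.34%. Without hemoglobin and immunoglobulin genes *Flt1* was at 0.02622. Without the 10 cells of most UMIs of the gene, *Flt1* was at 0.1665 and *Flt4* at 0.1604. Without the 5% of cells of most UMIs, *Vegfa* was at 0.1977 and *Kdr* at -0.4649. With only the gene's UMIs in its 10 leading cells set to 0, *Flt1* was at 0.3423, *Kdr* at -0.09166 and *Flt4* at 0.7024, and *Nrp2* in lymphatic endothelial-like cells reversed from -0.77 to 0.4416. In that class the 10 cells are 10 of 34 in ApcMin and 10 of 191 in VApcMinL, so settings on 10 cells remove a larger part of the smaller library.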

Other observations

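Limits. A class sum treats all molecules as independent, while cells of a library share an animal, a digestion and a sort. The smooth muscle-like and lymphatic endothelial-like classes of ApcMin are small. The 3′ tags do not separate splice forms, so soluble *Flt1* and the isoforms of *Vegfa* were not read. Protein, secretion and cleavage of the ligands were not measured. The gates left an unknown part of the epithelial and immune cells, so shares of a ligand between cell classes do not hold for the tissue.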
